A study of Homo sapiens with 18 samples.

Results

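The 10 transcription factor genes described here are SPI1, CEBPA, CEBPB, CEBPE, GFI1, IRF8, KLF4, EGR1, FLI1 and MYB, chosen by name as regulators of the myeloid lineage from the 20020 protein-coding genes of GENCODE release 44. For each histone mark, a gene's promoter intervals were those overlapping 2 kb on either side of any of its annotated start sites, and the interval with the highest mean count over the 4 libraries stood for the gene. Distal intervals were the other intervals within 50 kb of a start site. MOLM-13, a human acute myeloid leukemia line of monocytic kind with a rearranged KMT2A gene, was treated with PR-957 (ONX-0914), an inhibitor of the immunoproteasome subunit PSMB8, at 100 nM or with the diluent DMSO. The sample labels give 72 h of treatment. H3K27ac, H3K27me3, H3K4me1 and H3K4me3 were profiled by Cut&Tag, in which an antibody directs a transposase to cut and tag the DNA around the mark, with 2 libraries per treatment and mark. Of the 18 samples, 16 had count files, and the 2 IgG samples were not analysed here. The comparison asked whether inhibition of PSMB8 altered histone marks in these cells.

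SPI1 encodes PU.1, the ETS factor required for myeloid development, and CEBPA, CEBPB and CEBPE encode C/EBP factors that act from the myeloid progenitor to the late granulocyte. IRF8, KLF4 and EGR1 are known for monocytic differentiation, GFI1 for granulocytic differentiation and repression of monocytic genes, and FLI1 and MYB for the maintenance of hematopoietic progenitors. H3K4me3 marks active promoters, H3K4me1 enhancers and promoter flanks, H3K27ac active promoters and enhancers, and H3K27me3 genes repressed by Polycomb.

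At the promoters of the 10 genes lay 47 intervals of the 74559 listed for H3K27ac, 4 of the 33437 for H3K27me3, 50 of the 108165 for H3K4me1 and 51 of the 59230 for H3K4me3. Listed intervals overlap one another, usually several per locus, so that intervals of a locus share reads and are not independent. H3K27ac totals were 13235793 and 9984719 counts in DMSO and 9885836 and 14165777 in PR-957. H3K27me3 totals were 10032503 and 11976443 in DMSO and 10380816 and 12047958 in PR-957. H3K4me1 was covered by 30584219 and 23874111 counts in DMSO and by 15204186 and 22790073 in PR-957, and H3K4me3 by 44591150 and 42037643 against 30070119 and 30454212. The H3K4me1 library of PR-957 replicate 1 was thus the shallowest of its mark. The labels do not say that replicates were separate cultures, so p-values measure only the spread between these libraries, which may be technical. Below, a level is a CPM value, the count scaled to library size, and levels of different genes are compared per kb of interval. A count from pooled cells does not tell fewer cells with a mark from less of the mark per cell.

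Promoter sequences from RefSeq (GRCh38.p14, the hg38 build) were found for 8 of the 10 genes, in 12 entries. Those of SPI1 and FLI1 were missing. The 5 shown are the 200 bases before a start site, 5′ to 3′ on the gene's strand, picked for a motif that few or none of the other entries held. The motifs were chosen after the sequences had been read.
CEBPA: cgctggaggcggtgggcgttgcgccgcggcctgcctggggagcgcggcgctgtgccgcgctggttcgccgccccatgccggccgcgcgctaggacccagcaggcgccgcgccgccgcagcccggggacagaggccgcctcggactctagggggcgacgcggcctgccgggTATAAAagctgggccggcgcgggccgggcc
CEBPB: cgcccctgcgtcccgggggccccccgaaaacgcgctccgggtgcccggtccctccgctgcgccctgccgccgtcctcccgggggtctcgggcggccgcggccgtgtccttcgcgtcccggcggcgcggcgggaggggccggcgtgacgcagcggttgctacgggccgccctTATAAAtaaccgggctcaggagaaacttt
CEBPE: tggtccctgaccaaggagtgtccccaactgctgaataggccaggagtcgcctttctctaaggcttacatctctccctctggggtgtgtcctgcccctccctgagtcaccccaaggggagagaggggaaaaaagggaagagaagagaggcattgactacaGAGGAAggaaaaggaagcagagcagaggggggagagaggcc
GFI1: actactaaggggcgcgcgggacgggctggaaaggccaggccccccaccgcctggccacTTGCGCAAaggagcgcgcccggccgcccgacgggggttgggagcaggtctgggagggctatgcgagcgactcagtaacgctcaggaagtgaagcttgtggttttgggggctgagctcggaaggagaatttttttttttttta
EGR1: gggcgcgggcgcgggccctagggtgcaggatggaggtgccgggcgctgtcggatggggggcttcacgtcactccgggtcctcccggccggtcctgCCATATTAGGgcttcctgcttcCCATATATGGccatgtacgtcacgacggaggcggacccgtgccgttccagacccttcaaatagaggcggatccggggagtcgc
The stretches lie at chr19:33302535-33302734 (minus strand) for CEBPA, chr20:50190630-50190829 (plus) for CEBPB, chr14:23119256-23119455 (minus) for CEBPE, chr1:92486100-92486299 (minus) for GFI1 and chr5:138465279-138465478 (plus) for EGR1. GFI1 is shown before an alternative start downstream of its canonical one, and the other 4 are shown before the canonical start. Capitals mark TATAAA (the TATA box) in CEBPA and CEBPB, GAGGAA (an ETS core) in CEBPE, TTGCNNAA (a C/EBP core) in GFI1 and the CArG boxes of EGR1, the element of serum response factor.

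Each motif was searched on both strands of the 250 bases before the start. TATAAA began 30 bases before the CEBPA start and 29 before the CEBPB start, and 10.7% of 35116 promoters held it. GAGGAA occurred at CEBPE, KLF4 and another GFI1 entry, against 23.6% of promoters, and TTGCNNAA at GFI1 alone, against 9.05%. The 2 CArG boxes of EGR1 began 105 and 83 bases before its start, and 1.16% of promoters held any. The EGR1 element, searched as GCGNGGGCG, was in EGR1 itself and in KLF4, and in 8.41% of promoters. The GC box, searched as GGGCGG, occurred in all entries but those of CEBPE, IRF8 and EGR1, and in 42.6% of promoters. CCAAT occurred in an entry each of CEBPB and GFI1, and in 32% of promoters. In KLF4 an EGR1 element overlapped a GC box, and no other matches overlapped. A match describes letters and not a bound site.

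CEBPA had the highest GC content of the entries, 81.2%, with an observed over expected CpG ratio of 1.0, against medians of 58% and 0.558 over all promoters. The MYB entry had 75.6% GC and a ratio of 0.95. CEBPE was CpG-poor, at 57.2% GC and a ratio of 0.099. The 2 IRF8 entries had ratios of 0.11 and 0.22, but they precede starts inside the gene, at positions 85902830 and 85903015 of chromosome 16, and not the canonical start at 85899162.

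The marks of lineage genes were set against the cell line's label. H3K27ac intervals lay at 7 of 8 myeloid marker promoters (CD33, CSF1R, LYZ, MPO, FLT3, HOXA9 and MEIS1, but not CSF2RA), against 60.4% of protein-coding genes. They lay at 0 of 5 erythroid and megakaryocytic, 0 of 5 T cell and 0 of 3 NK cell marker promoters. The B cell genes PAX5 and CD79A had one, and of 4 genes of other tissues KRT8 did. PAX5 stood at percentile 0.215 of the H3K27ac levels of protein-coding genes, but CD79A stood at 64.7 and KRT8 at 39.3. Of the myeloid markers, MPO (26.3), LYZ (28.5), CSF1R (30.1) and CD33 (38.2) stood below both. FLT3 (82.2), HOXA9 (87.5) and MEIS1 (98.4) stood above both. Levels thus did not separate the myeloid markers from the others.

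All 10 promoters carried H3K27ac and H3K4me3 intervals, which 60.4% and 63.9% of protein-coding genes had. Of these, SPI1, CEBPA, CEBPB, CEBPE, GFI1, IRF8 and MYB also had H3K4me1 and no H3K27me3, a combination found at 31% of protein-coding genes. KLF4 and EGR1 had H3K27ac and H3K4me3 without either other mark, as 19% of genes did. FLI1 carried all 4 marks, as 4.96% of genes did. Its H3K27me3 lay at the upstream start of the gene and not at the canonical one, as given with its values below.

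The intervals of the 2 promoter marks lay over the start sites, while H3K4me1 lay mostly beside them. All 10 H3K27ac and all 10 H3K4me3 intervals that stood for the genes covered the canonical start. Among the 8 H3K4me1 intervals only those of CEBPB and CEBPE did. The nearest edge of the H3K4me1 interval was 721 bp from the start of SPI1, 1059 bp from that of CEBPA, 1352 bp for FLI1, 1822 bp for IRF8, 4766 bp for GFI1 and 6450 bp for MYB.

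In DMSO, MYB had the highest level of both promoter marks, with 17.7 ± 0.476 CPM per kb of H3K27ac (SD, 2 libraries) and 12.5 ± 0.173 of H3K4me3. These stood at percentiles 98.7 and 99 of protein-coding genes with an interval. GFI1 was next in H3K27ac, at 13.4 ± 0.423 CPM per kb, followed in its mean by SPI1 at 9.56 ± 0.714. The DMSO libraries of SPI1 (9.05 and 10.06) overlapped those of FLI1 (7.30 and 9.22), so that these 2 genes were not separated. The libraries of CEBPA, EGR1 and FLI1 overlapped between 8.26 and 8.49 CPM per kb in their means, as did those of KLF4 and CEBPB at 5.13 and 5.08. CEBPE, at 2.77 ± 0.372, and IRF8, at 1.94 ± 0.355, had the lowest H3K27ac of the 10, and IRF8 stood at percentile 17.4. This order is that of the intervals that stood for the genes. Other intervals over the same starts reached 12.2 CPM per kb at EGR1 and 3.12 at IRF8, while MYB and GFI1 kept their places over all intervals at the starts.

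The H3K4me3 order of these intervals was similar, with SPI1 second at 10.4 ± 0.171 CPM per kb and CEBPA next at 7.91 ± 0.0991. FLI1, EGR1 and GFI1 could not be ordered, at 7.46, 7.36 and 7.32, each overlapping its neighbour. KLF4 (5.34), CEBPB (4.71) and IRF8 (3.81) followed without overlap. CEBPE was lowest by a wide margin, at 0.688 ± 0.0924 CPM per kb and percentile 3.12. Other intervals over the CEBPA start reached 12.2 CPM per kb, above each of SPI1 (10.2 to 11.3), and those over the CEBPE start reached 1.20. Across the 10 genes the levels of the 2 promoter marks had a Spearman correlation of 0.855, against 0.667 across 11360 protein-coding genes. Genes are not independent replicates. Interval widths differed between the marks, such as 3.5 kb of H3K27ac and 8.17 kb of H3K4me3 at IRF8. Whether width or base composition contributes to the correlation was not tested.

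CEBPE held the opposite place in H3K4me1, with the highest level of the 8 intervals that stood for genes, 4.37 ± 0.123 CPM per kb at percentile 96.7. CEBPA (3.84 ± 0.179), MYB (3.08 ± 0.398) and FLI1 (2.03 ± 0.357) came next. SPI1 and CEBPB overlapped, the latter at 1.47, and GFI1 and IRF8 at 1.05 and 0.980. The late granulocytic factor CEBPE was thus the member with much H3K4me1 and little H3K4me3 over its start. H3K4me1 levels of the 8 genes had Spearman correlations of 0.119 with H3K27ac and 0.19 with H3K4me3, where those over protein-coding genes were -0.173 and -0.0903.

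**Figure D1:**
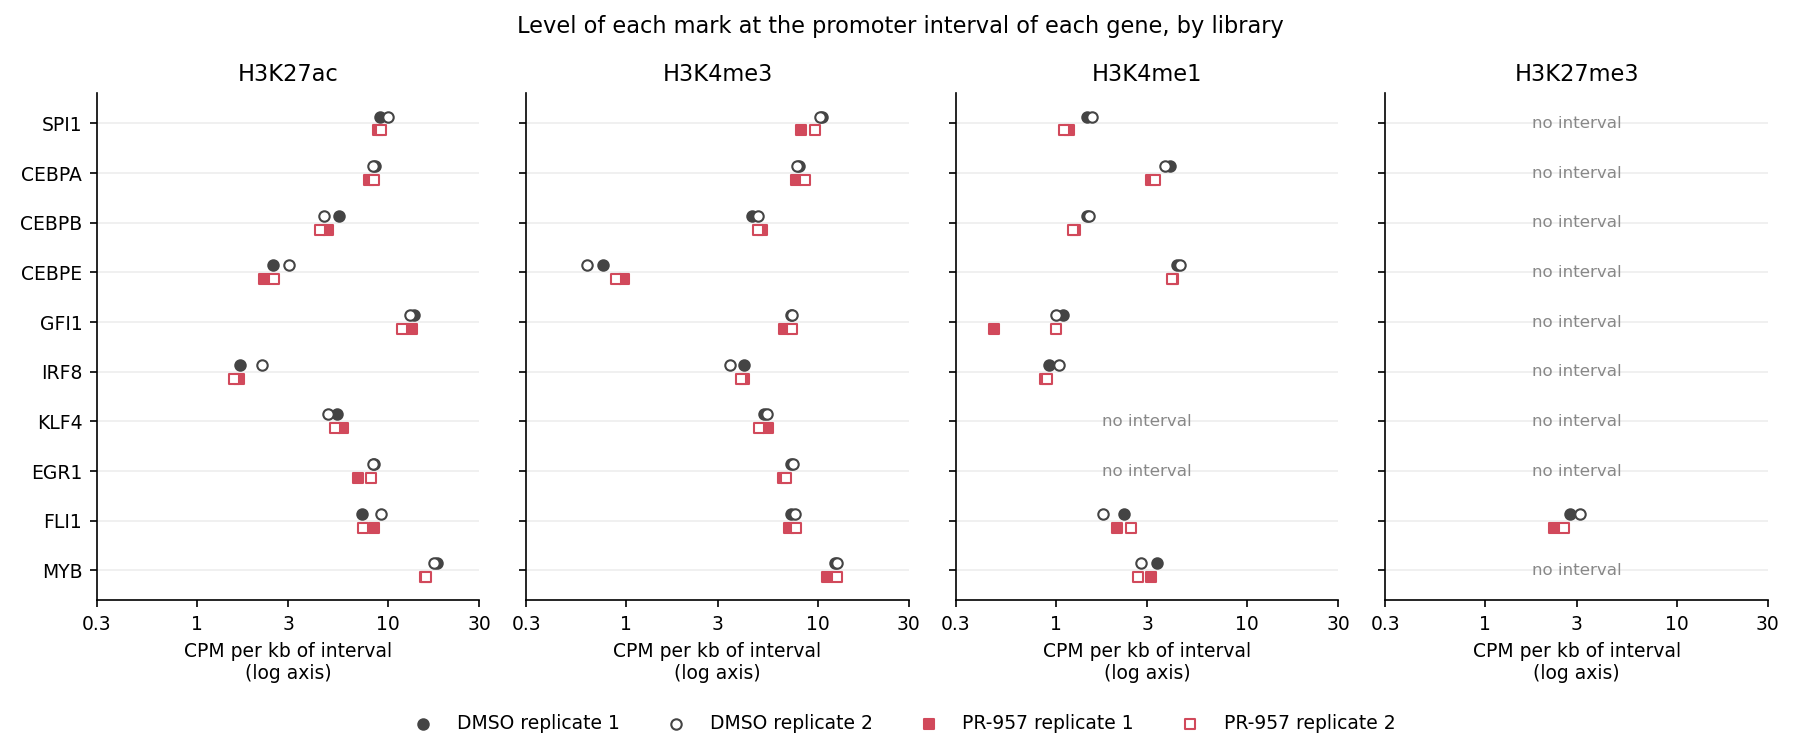
CPM per kb of the promoter interval (log axis) in each library, circles for DMSO and squares for PR-957, filled for replicate 1 and open for replicate 2. MYB lies highest in H3K27ac and H3K4me3, CEBPE lowest in H3K4me3 at 0.688 in DMSO, and treatments lie close together at most genes.

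Several of the genes lay in wide domains. The H3K4me3 interval of GFI1 spanned 16.7 kb, percentile 99.5 of protein-coding genes, and covered 99.6% of the gene. CEBPA, a gene of a single exon, was covered whole by 14.0 kb of H3K4me3 (percentile 98.9) and 13.3 kb of H3K27ac (percentile 98.1). GFI1 H3K27ac spanned 12.3 kb (percentile 97.7). MYB, highest in level, had a narrower H3K27ac interval of 4.76 kb, at percentile 78.3. KLF4 was near the middle, at 3.27 kb and percentile 53 for H3K27ac.

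**Figure D2:**
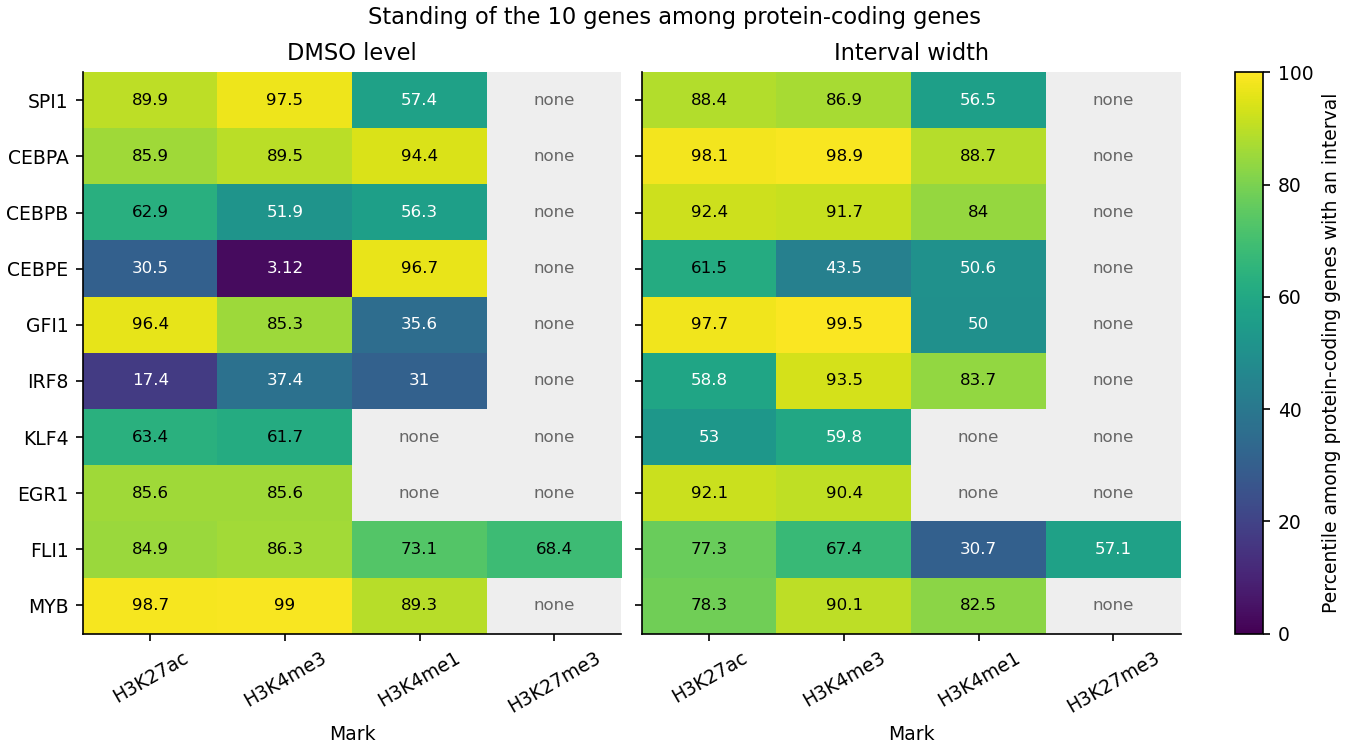
Percentile of each gene among protein-coding genes that had an interval of the mark, for the DMSO level in CPM per kb and for the interval width, with grey where a gene had no interval. GFI1 and CEBPA reach percentiles 99.5 and 98.9 in H3K4me3 width, and CEBPE falls to 3.12 in H3K4me3 level.

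Between PR-957 and DMSO, no promoter interval of the 10 genes passed the test in any mark. By edgeR's quasi-likelihood test with Benjamini-Hochberg adjustment at 0.05 over all intervals of a mark, 0 of 47 H3K27ac intervals were called, where 0.238% of all intervals were. The same held for 0 of 4 H3K27me3 intervals (5.92% of all), 0 of 50 H3K4me1 intervals (1.94%) and 0 of 51 H3K4me3 intervals (0.226%). DESeq2 called 0 in each mark as well. It gave no adjusted p for the H3K27ac intervals that stood for CEBPB, CEBPE, FLI1, IRF8 and KLF4, so that it could not call these. Such counts of 0 lie near the backgrounds, so that they do not set the 10 genes apart.

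At an unadjusted p under 0.05 by edgeR there were 8 of 47 H3K27ac intervals (17%, all lower in PR-957), against 8.01% of all intervals. These came from single loci at EGR1 (3 intervals), GFI1 (1) and MYB (4). All 4 H3K27me3 intervals, a single locus of FLI1, were under 0.05 and lower, against 15.6% of all. Of these 4, 0 were under 0.05 with library size alone, cyclic loess, a mean count of at least 50, DESeq2, without DMSO replicate 2 or without PR-957 replicate 1. There were 2 with median-of-ratios factors and with the replicate block, and 3 without PR-957 replicate 2. In H3K4me1 there were 8 of 50 (16%, 7 lower and 1 higher), equal to the 16.2% of all. In H3K4me3 there were 8 of 51 (15.7%), from a SPI1 locus with 4 lower and a MYB locus with 4 higher, against 7.52% of all. With a library left out these counts were 0 to 11 of 47 in H3K27ac, 1 to 6 of 50 in H3K4me1 and 7 to 17 of 51 in H3K4me3. Excesses over the background in the promoter marks therefore rested on a few loci counted several times.

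PR-957 and DMSO libraries did not overlap in CPM at 16 of 47 H3K27ac intervals (34%, with 15 below DMSO and 1 above). Over all H3K27ac intervals 36.9% did not overlap (18.8% below and 18.1% above). The share was 29 of 50 for H3K4me1 (58%, with 26 below DMSO and 3 above), against 46.7% (23.2% below and 23.5% above). For H3K4me3 it was 18 of 51 (35.3%, with 11 below DMSO and 7 above), against 36.6% (18.4% below and 18.1% above). All 4 H3K27me3 intervals of FLI1 lay below DMSO in both libraries, against 44.2% of all without overlap (22.5% below and 21.6% above). An exact permutation test of 2 libraries against 2 cannot give a p under 0.333. Only the model across all intervals could therefore reach the threshold.

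With the interval that stood for each gene, H3K27ac was lower in PR-957 at 9 of 10 genes, with KLF4 the exception, and the median log2 fold change was -0.12. Over 12085 protein-coding genes 49.8% were lower and the median was 0.00. No sign turned with library size alone, median-of-ratios factors, cyclic loess or GC offsets. However, FLI1 turned when replicate 2 of either treatment was left out, and IRF8 with a 5 kb window, which picked another interval. H3K4me1 was lower at 7 of 8 genes, with a median of -0.20, but CEBPE turned with GC offsets and MYB with cyclic loess and when DMSO replicate 1 or PR-957 replicate 2 was left out. Over 8701 protein-coding genes H3K4me1 was lower at 62.1%, with a median of -0.08. H3K4me3 was lower at 6 of 10, with a median of -0.02 against -0.01 over all genes, and FLI1 turned with library size alone and with cyclic loess. With a library left out, the H3K4me3 sign turned at CEBPA, GFI1, IRF8, KLF4, FLI1 and MYB. The genes were chosen with results known, so that these counts describe them and test nothing.

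**Figure D3:**
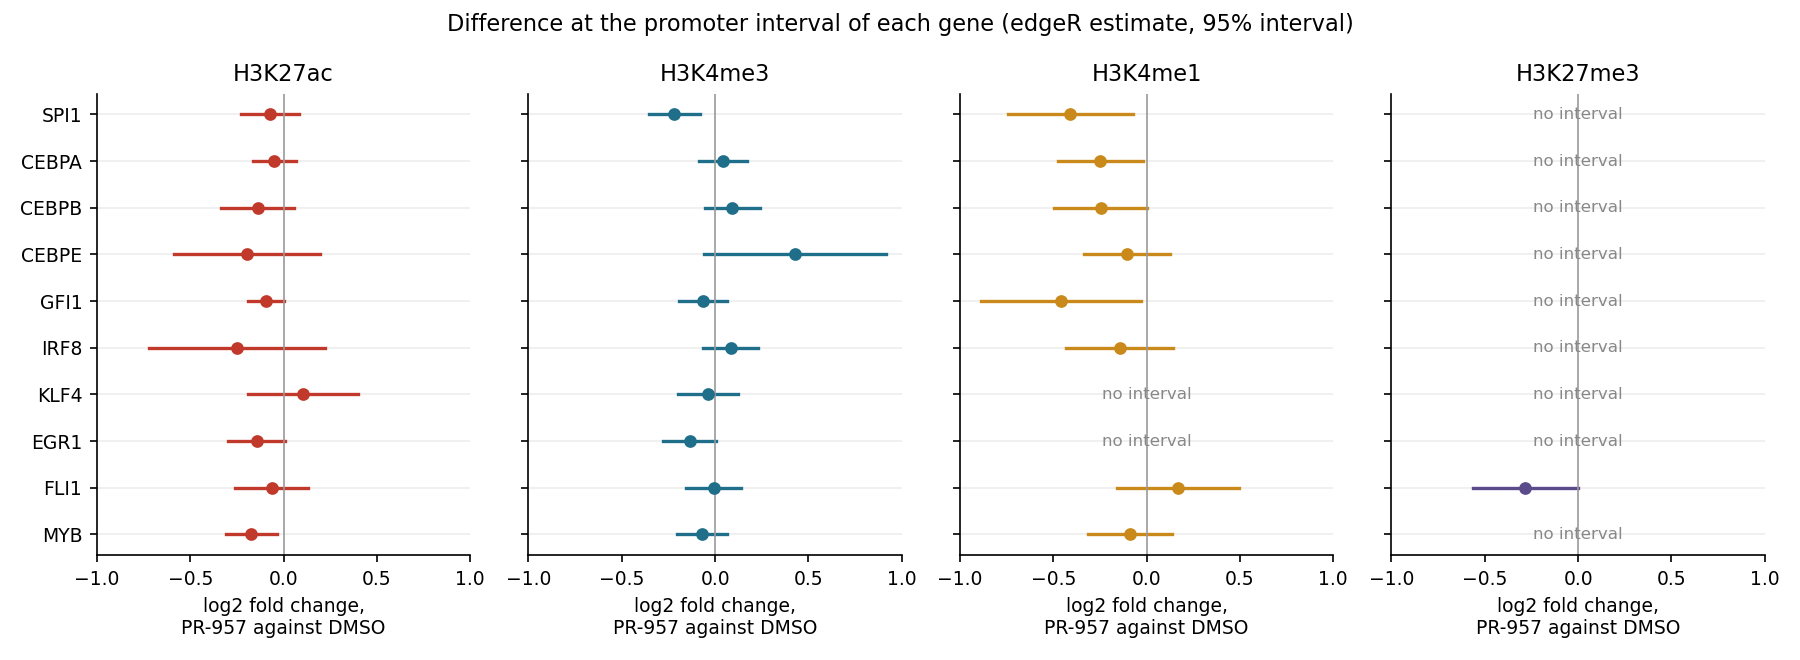
Log2 fold change of PR-957 against DMSO at the promoter interval of each gene, as the edgeR estimate (point) with its 95% interval (line), for each mark. Most intervals include 0, those of CEBPE H3K4me3 and IRF8 H3K27ac are wide, and no gene passed the adjusted threshold.

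SPI1 had the smallest adjusted p of the promoter intervals that stood for the genes in H3K4me3. At chr11:47372813-47379354 its H3K4me3 was 68.8 and 67.2 CPM in DMSO and 53.5 and 63.3 CPM in PR-957. Both PR-957 libraries were below both DMSO libraries, and replicate 1 was the lower. The log2 fold change was -0.22 (SE 0.07, 95% interval -0.36 to -0.08), with an adjusted p of 0.210 by edgeR. Without PR-957 replicate 1 it was -0.10, and without PR-957 replicate 2 it was -0.35 with an adjusted p of 0.00927 by edgeR, the lowest of a range from 0.00927 to 1 over the alternatives.

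SPI1 H3K4me1, at chr11:47372634-47377826 in the gene body, was 7.59 and 8.03 CPM in DMSO and 6.10 and 5.70 CPM in PR-957. The groups did not overlap, with a log2 fold change of -0.41 (SE 0.17) and an adjusted p of 0.192 by edgeR. SPI1 H3K27ac overlapped between treatments, at 57.6 and 64.0 CPM against 56.5 and 58.6 CPM (log2 fold change -0.07, 95% interval -0.23 to 0.08). H3K4me3 and H3K4me1 of SPI1 were thus both lower in PR-957 without passing the test, while H3K27ac overlapped.

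CEBPA, the C/EBP factor of the early granulocyte-monocyte progenitor, had the tightest estimates of the C/EBP genes. Its H3K27ac at chr19:33291942-33305200 was 113.8 and 111.3 CPM in DMSO and 105.8 and 111.6 CPM in PR-957. The libraries overlapped, and the 95% interval of the log2 fold change ran from -0.16 to 0.07. H3K4me3 overlapped as well, with a log2 fold change of 0.04 (-0.09 to 0.17). H3K4me1 at chr19:33289237-33301475, downstream of the start, was lower in both PR-957 libraries, at 48.5 and 45.4 CPM against 38.4 and 40.6 CPM. Its log2 fold change was -0.25 (SE 0.12), with an adjusted p of 0.255 by edgeR.

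Over the CEBPA start itself lay a small H3K4me1 interval, chr19:33301876-33303536, named after its values were seen. It held 14 and 11 counts in DMSO and 20 and 30 in PR-957, or 0.474 and 0.460 against 1.28 and 1.31 CPM. Here PR-957 was higher in both libraries, opposite to the flank, with a log2 fold change of 1.46 (SE 0.55) and an adjusted p of 0.139 by edgeR. Such low counts leave a wide 95% interval, 0.37 to 2.54. The other 4 intervals of this locus, of which 1 overlaps it and all are centred further upstream, had log2 fold changes from -0.30 to -0.04.

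CEBPB, induced in inflammation and emergency granulopoiesis, overlapped in H3K27ac (42.5 and 35.9 CPM against 37.6 and 34.2 CPM) and in H3K4me3 (34.2 and 37.1 against 39.0 and 37.0 CPM). Its H3K4me1, over the whole gene at chr20:50185831-50196210, was 15.2 and 15.4 CPM in DMSO and 13.1 and 12.7 CPM in PR-957. This was a difference without overlap, at a log2 fold change of -0.25 (SE 0.13) and an adjusted p of 0.319 by edgeR. In the intervals that stood for the genes, CEBPA and CEBPB thus showed the same order in H3K4me1 and none in the promoter marks. The CEBPA H3K27ac intervals chr19:33297037-33307255 and chr19:33297041-33305521, also over the start, were lower in PR-957 without overlap. Their log2 fold changes were -0.10 and -0.10, with adjusted p-values of 0.76 and 0.79 by edgeR, while chr19:33292391-33304472 overlapped.

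CEBPE had the largest positive H3K4me3 estimate among the intervals that stood for the genes. At chr14:23118233-23121973 the counts were 126 and 97 in DMSO and 111 and 100 in PR-957, which the smaller PR-957 libraries turned into 2.82 and 2.33 against 3.64 and 3.30 CPM. PR-957 was above DMSO in both libraries, with a log2 fold change of 0.43 (SE 0.25, 95% interval -0.06 to 0.92) and an adjusted p of 0.741 by edgeR. In the interval that stood for the gene its H3K27ac overlapped, at 9.08 and 11.0 CPM against 8.15 and 9.15 CPM. The H3K27ac intervals chr14:23117303-23120679, chr14:23117763-23120653 and chr14:23117851-23120516, also over the start, were lower in PR-957 without overlap. Their log2 fold changes ran from -0.29 to -0.26, and they did not pass the test.

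GFI1 H3K4me1, at chr1:92477582-92482159, was 5.01 and 4.60 CPM in DMSO and 2.18 and 4.57 CPM in PR-957. The groups were separated narrowly, and PR-957 replicate 1, the shallowest H3K4me1 library, held 34 counts and lay far below the others. The log2 fold change was -0.46 (SE 0.22), with an adjusted p of 0.265 by edgeR. Without PR-957 replicate 1 it was -0.08, and without PR-957 replicate 2 it was -1.14 with an adjusted p of 0.0281 by edgeR, in a range of 0.0281 to 0.938 over the alternatives. GFI1 H3K27ac overlapped, at 168.5 and 161.1 CPM against 164.0 and 146.0 CPM, as did its H3K4me3, with log2 fold changes of -0.09 and -0.06.

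The monocytic factors were also without a call. IRF8 H3K27ac, the lowest of the genes, was 5.90 and 7.66 CPM in DMSO and 5.84 and 5.49 CPM in PR-957, with a wide 95% interval of -0.72 to 0.22 around a log2 fold change of -0.25. KLF4 was the gene with higher H3K27ac in PR-957, 17.7 and 15.8 CPM against 19.1 and 17.2 CPM, with overlap and a log2 fold change of 0.10 (-0.19 to 0.40). EGR1, an immediate early gene, was lower without overlap in both promoter marks. Its H3K27ac at chr5:138461384-138468921 was 63.6 and 63.1 CPM in DMSO and 52.6 and 61.4 CPM in PR-957, and its H3K4me3 was 52.7 and 54.2 CPM against 47.8 and 49.5 CPM. The log2 fold changes were -0.14 (SE 0.08) and -0.14 (SE 0.07), with adjusted p-values of 0.663 and 0.678 by edgeR.

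MYB had the smallest adjusted p of the H3K27ac intervals that stood for the genes. At chr6:135179913-135184672 its H3K27ac was 85.7 and 82.5 CPM in DMSO and 74.5 and 74.9 CPM in PR-957. Replicates lay close together and treatments did not overlap, with a log2 fold change of -0.17 (SE 0.07, 95% interval -0.31 to -0.04) and an adjusted p of 0.429 by edgeR. This interval puts the PR-957 level between 0.809 and 0.974 times that of DMSO. In the interval that stood for the gene, MYB H3K4me3 over the same start overlapped, at 88.8 and 90.6 CPM against 80.6 and 90.3 CPM. The H3K4me3 intervals chr6:135177919-135184709, chr6:135179911-135184740 and chr6:135179918-135184670, also over this start, were lower in PR-957 without overlap. Each had a log2 fold change of -0.09 and did not pass the test.

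A second H3K4me3 locus of MYB, near starts inside the gene at chr6:135194621-135197752, was named after its values were seen. It was 2.95 and 3.32 CPM in DMSO and 4.79 and 5.48 CPM in PR-957. PR-957 was higher in both libraries, by a log2 fold change of 0.71 (SE 0.20) with an adjusted p of 0.110 by edgeR, the smallest among the H3K4me3 promoter intervals. The level was 1.00 CPM per kb in DMSO, against 12.5 over the canonical start. Start sites of MYB span 21.9 kb and those of FLI1 117 kb, and both genes had several loci in their windows.

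FLI1 was the gene with H3K27me3. Its interval, chr11:128681104-128688316, covered the upstream start and ended 5756 bp before the canonical one. It was 20.0 and 22.7 CPM in DMSO and 16.5 and 18.6 CPM in PR-957, below DMSO in both libraries. The log2 fold change was -0.28 (SE 0.14, 95% interval -0.56 to -0.0022), with an adjusted p of 0.316 by edgeR. With library size alone it was -0.12, while the median of all H3K27me3 intervals shifted from 0.02 to 0.18, and adjusted p-values spanned 0.198 to 0.766 over the alternatives. A small distal interval of the same locus, centred 12.2 kb upstream of the canonical start, was higher in PR-957 without overlap, with a log2 fold change of 0.47 (SE 0.60, 0.04 to 1.13 with a library left out) and an adjusted p of 0.789 by edgeR. The same upstream start carried H3K4me3 at chr11:128684319-128688523, with 4.54 and 3.36 CPM in DMSO and 4.46 and 4.23 CPM in PR-957. The canonical start had 34.9 and 36.9 CPM of H3K4me3 against 34.2 and 37.2 CPM, a log2 fold change of -0.01 (-0.15 to 0.14). FLI1 thus had a canonical start with much H3K4me3 and H3K27ac and an upstream start with little H3K4me3 under H3K27me3.

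Distal H3K27ac intervals numbered 129 in 47 loci, those of H3K4me1 167 in 46 loci and those of H3K4me3 89 in 27 loci, and H3K27me3 had 1. By edgeR 0 of them were called in each mark, and by DESeq2 likewise 0. Of the distal H3K27ac intervals named below, DESeq2 gave an adjusted p only at SPI1 (-13.9 kb) and CEBPA (+32.4 kb), and could not call the others. It also gave none for the H3K27me3 interval and for H3K4me3 at CEBPA (+20.8 kb) and GFI1 (+26.2 kb). At an unadjusted p under 0.05 by edgeR there were 6 of 129 for H3K27ac (4.65%), 27 of 167 for H3K4me1 (16.2%), 3 of 89 for H3K4me3 (3.37%) and 0 of 1 for H3K27me3. None of these shares exceeded those of all intervals given above. Groups did not overlap at 54 of 129 H3K27ac intervals (41.9%, against 36.9% of all), 90 of 167 H3K4me1 intervals (53.9%, against 46.7%) and 33 of 89 H3K4me3 intervals (37.1%, against 36.6%).

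SPI1 is known for an enhancer upstream of its promoter, and the strongest distal H3K27ac beside it was a 10.0 kb intergenic interval centred 13.9 kb upstream, chr11:47387464-47397463. It was 88.7 and 93.5 CPM in DMSO and 87.7 and 87.9 CPM in PR-957, or 9.11 CPM per kb in DMSO against 9.56 at the promoter. Its log2 fold change was -0.05 (SE 0.06, 95% interval -0.18 to 0.08). CEBPA had a 13.4 kb interval centred 32.4 kb downstream of its start, at 59.8 and 54.1 CPM against 55.9 and 49.6 CPM, with a log2 fold change of -0.12 (-0.28 to 0.04). PR-957 lay narrowly below DMSO in the SPI1 region and overlapped with it in the CEBPA region, and both 95% intervals include 0.

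The strongest distal H3K27ac of the other genes was intergenic for GFI1 (+27.4 kb), IRF8 (+31.6 kb) and EGR1 (-5.9 kb), and intronic for FLI1 (+33.0 kb) and MYB (+31.4 kb). For CEBPB it lay over the promoter of PEDS1 (-41.1 kb) and for CEBPE over that of ACIN1 and C14orf119 (+24 kb), so that these may belong to other genes. KLF4 had no distal H3K27ac within 50 kb. Log2 fold changes of these loci ran from -0.31 at IRF8 to 0.24 at MYB.

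IRF8, known for a string of enhancers downstream of the gene, held more distal intervals with small p-values than any other of the 10 genes. In H3K27ac, chr16:85944494-85949747, centred 48.0 kb downstream of the start, was 10.4 and 11.5 CPM in DMSO and 8.35 and 5.42 CPM in PR-957. The groups did not overlap, with a log2 fold change of -0.69 (SE 0.21) and an adjusted p of 0.151 by edgeR. The interval at +31.6 kb was 15.9 and 14.5 CPM against 13.2 and 11.6 CPM, with a log2 fold change of -0.31 and an adjusted p of 0.675 by edgeR. Of the 17 distal H3K27ac intervals of IRF8, 4 (23.5%, against 8.01% of all intervals) had an unadjusted p under 0.05 by edgeR, all lower and of a single locus. With a library left out, the log2 fold change at +48.0 kb ran from -1.01 to -0.38, and its adjusted p spanned 0.0710 to 0.738 over the alternatives. The other loci among the 5 with the smallest p in distal H3K27ac were at FLI1 (+133 kb) and SPI1 (-29.6 kb), both higher in PR-957 without overlap, and at SPI1 (+45.8 kb), lower without overlap. Their log2 fold changes were 1.75, 0.35 and -0.58, with adjusted p-values of 0.581, 0.613 and 0.692 by edgeR. The SPI1 interval at -29.6 kb lay over the promoter of SLC39A13, so that it may belong to that gene.

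In H3K4me1, 9 of 28 distal IRF8 intervals (32.1%, against 16.2% of all intervals) had an unadjusted p under 0.05 by edgeR, all lower, in 3 loci. The share was 26.7% at SPI1, all lower, and 23.1% at CEBPE, all higher. The upstream locus chr16:85849480-85861659 (-43.6 kb) was 29.2 and 30.4 CPM in DMSO and 22.9 and 23.6 CPM in PR-957. Replicates were close and treatments separate, with a log2 fold change of -0.36 (SE 0.12) and an adjusted p of 0.0677 by edgeR. The locus chr16:85953424-85957979 (+56.5 kb) was 12.7 and 12.5 CPM in DMSO and 7.96 and 10.5 CPM in PR-957, with a log2 fold change of -0.43 (SE 0.14) and an adjusted p of 0.0694 by edgeR. Without PR-957 replicate 1 the latter was -0.27, and without PR-957 replicate 2 it was -0.66 with an adjusted p of 0.0293 by edgeR. By DESeq2 the adjusted p-values of these 2 loci were 0.503 and 0.629, the highest over the alternatives. The interval at +31.3 kb had a log2 fold change of -0.30 and an adjusted p of 0.157 by edgeR.

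The distal H3K4me1 interval with the smallest p was in an intron of FLI1, chr11:128703165-128708477 (+11.7 kb). It was 8.10 and 5.52 CPM in DMSO and 8.98 and 10.2 CPM in PR-957, higher in both PR-957 libraries, although DMSO replicates differed widely. The log2 fold change was 0.49 (SE 0.16), with an adjusted p of 0.0675 by edgeR. By edgeR its adjusted p was 0.0436 with library size alone, 0.0494 at a mean count of at least 50 and 0.0494 without DMSO replicate 1, in a range of 0.0436 to 0.670. With a library left out its log2 fold change ran from 0.25 to 0.80. The call of this intron therefore depended on scaling, filter and a single library.

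Beside CEBPE, an H3K4me1 interval in an intron of ACIN1, chr14:23078513-23080261 (+39.9 kb), was 1.02 and 1.21 CPM in DMSO and 2.57 and 2.35 CPM in PR-957. It was higher without overlap, by a log2 fold change of 1.14 (SE 0.38) with an adjusted p of 0.0824 by edgeR. Near GFI1, H3K4me3 at chr1:92459430-92462073 (+26.2 kb) was 1.90 and 1.78 CPM against 0.788 and 0.991 CPM. That locus, intergenic and low in counts, had a log2 fold change of -1.05 (SE 0.39) and an adjusted p of 0.370 by edgeR. The other distal H3K4me3 loci with the smallest p were higher in PR-957 at CEBPA (0.92, with overlap), GFI1 (0.35) and EGR1 (0.58), and lower at SPI1 (-0.12). This EGR1 interval lay over the promoter of REEP2, and the H3K4me1 interval beside CEBPE over that of ACIN1.

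Other genes of the same families and circuits passed in 2 cases. Of 18 family relatives, 14 had an H3K27ac interval at the promoter and 0 were called by edgeR, with 0 under an unadjusted p of 0.05 and 0 called by DESeq2. EGR3, an EGR1 relative, was called lower in H3K4me1, at 10.9 and 11.2 CPM in DMSO and 6.67 and 7.70 CPM in PR-957 (log2 fold change -0.61, SE 0.15, adjusted p 0.0106 by edgeR). IRF4, a relative of IRF8, fell in H3K27me3 from 153.2 and 154.1 CPM to 121.3 and 141.7 CPM (log2 fold change -0.22, SE 0.06, adjusted p 0.0124 by edgeR). With library size alone the median of all H3K27me3 intervals shifted from 0.02 to 0.18, and IRF4 is not given at that scaling. Of relatives, 6 had H3K27me3, 14 H3K4me1 and 17 H3K4me3, and no other interval passed. The calls were thus 1 of 14 in H3K4me1, against 187 of 8701 protein-coding genes, and 1 of 6 in H3K27me3, against 458 of 3874. DESeq2 called neither of these 2, and in H3K4me3, where edgeR also called 0, 3 of 17 relatives were under an unadjusted p of 0.05 by edgeR, against 1028 of 12790 protein-coding genes, and DESeq2 called 0.

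Of 16 cofactors and antagonists, such as RUNX1, GATA2 and KDM1A, 15 had H3K27ac, 14 H3K4me1, 16 H3K4me3 and 3 H3K27me3, and edgeR called 0 in each mark. The counts at an unadjusted p under 0.05 by edgeR were 2, 2, 1 and 0, and DESeq2 called 0 in each mark. Over protein-coding genes 1154 of 12085, 1470 of 8701, 1028 of 12790 and 888 of 3874 were under 0.05. Among 17 textbook target genes of the factors, H3K27ac and H3K4me3 lay at 8 each (47.1%, against 60.4% and 63.9% of protein-coding genes), H3K4me1 at 12 (70.6%, against 43.5%) and H3K27me3 at 0 (against 19.9%). Neutrophil granule genes ELANE, AZU1 and PRTN3 had none of the 4 marks at their promoters, while MPO had H3K27ac and H3K4me1, and CTSG and LYZ had both of these and H3K4me3. By edgeR 0 targets were called, with 1 under an unadjusted p of 0.05 in each of H3K27ac, H3K4me1 and H3K4me3, and DESeq2 called 0.

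Some markers passed the test as well. HOXA9 and MEIS1, homeobox genes of KMT2A-rearranged leukemia, were lower in H3K27ac, with log2 fold changes of -0.18 (adjusted p 0.00827 by edgeR) and -0.28 (adjusted p 4.08e-07 by edgeR). These were 2 of 7 myeloid markers with an interval, against 58 of 12085 protein-coding genes. In H3K27me3, HOXA9, PAX5, GATA3 and EOMES were lower, with log2 fold changes of -0.44, -0.34, -0.39 and -0.45, all by edgeR. These were 4 of 13 markers with an interval, against 458 of 3874 protein-coding genes. The HOXA9 interval, chr7:27143865-27263758, was 120 kb wide. Those of PAX5, GATA3 and EOMES were 49.3, 47.5 and 21.7 kb wide. The values therefore describe wide domains and not these promoters alone. Of the other markers with H3K27me3, KLF1, ITGA2B, TBX21, EPCAM, KRT8 and MYOD1 had positive log2 fold changes, from 0.08 to 1.15, and did not pass. MEIS1, EBF1 and BCL11B had negative ones, of -0.25, -0.23 and -0.13, and did not pass either. DESeq2 called the same markers as edgeR in both marks. The markers are not given with library size alone, where the median of all H3K27me3 intervals was 0.18. Of the myeloid markers, 7 had H3K4me1 and 6 had H3K4me3, and edgeR and DESeq2 called 0 in each, with 1 and 2 under an unadjusted p of 0.05 by edgeR, against the shares of protein-coding genes given above.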

How the data were processed

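Cut&Tag libraries of MOLM-13 cells treated with PR-957 or DMSO were analysed from the counts of reads or fragments that the authors deposited, whole numbers on an interval list shared by the 4 libraries of a mark, without normalization. The submitters' processing notes name Trimmomatic 0.39, Bowtie2 2.2.5, Picard 2.27.1, SAMtools 1.7, SEACR 1.3, deepTools 3.5.1 and hg38. The counting program and duplicate treatment were not given in the sources used here. For treatment time the study's text and the labels differ. Interval starts and ends are those of the files.

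Intervals were kept by filterByExpr, normalized by TMM and compared with edgeR 4.0.16 (quasi-likelihood, treatment as the only term, Benjamini-Hochberg over all intervals of a mark at 0.05) in R 4.3.3. CPM used effective library sizes. Files were read and annotated with GENCODE 44 in Python 3.11.15. Scripts were tested on simulated data. Replicate libraries differed beyond counting noise, with a chi-square per degree of freedom of 2.06 to 2.90.

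The members and lists were chosen with earlier results of these data known. Named genes were the 10 members in all marks, the distal intervals past the threshold or among the 5 loci with the smallest p per mark, the distal locus with the most H3K27ac beside each member, and list genes past the threshold. The lists were 18 relatives, 16 cofactors, 17 targets and the lineage markers, 1 of which is not reported here. Alternatives were other scalings, filters, DESeq2 1.42.0, GC offsets, a replicate block, windows of 1 and 5 kb, distal limits of 25 and 100 kb, the widest interval, a single interval per locus and leaving out each library.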

Additional observations from a re-analysis of the deposited data

How the results depend on the processing

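Over the alternatives, 441 of 464 promoter log2 fold changes of the 10 genes kept their direction and side of the threshold, 2 passed it and 21 changed sign. For the named distal intervals these were 298, 4 and 5 of 307. Counts of called promoter intervals that stood for the genes stayed at 0 except without PR-957 replicate 2, so that leaving out a library gave 0 to 1 in H3K4me1 (GFI1) and 0 to 1 in H3K4me3 (SPI1). Of all promoter intervals, 3 of 50 in H3K4me1 and 4 of 51 in H3K4me3 were then called. The H3K4me1 distal count was 1 with library size only and 1 at a mean count of at least 50, the FLI1 intron in both. It was 0 to 4 with a library left out, where the 4 were 3 overlapping GFI1 intervals and IRF8 at +56.5 kb, without PR-957 replicate 2. A lone library of a treatment is then assumed to vary like the pair of the other.

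Signs turned as follows, at adjusted p-values far from the threshold. Where the window or the widest interval was changed, another interval stood for the gene under the same fit. For the other settings the cause was not tested. A 5 kb window gave 0.157 for IRF8 H3K27ac and 0.0744 for CEBPE H3K4me1, GC offsets 0.00537 for CEBPE H3K4me1, cyclic loess 0.00235 for MYB H3K4me1 and 0.0105 for FLI1 H3K4me3, and library size only 0.0038 for FLI1 H3K4me3. The widest interval gave 0.054 for MYB in H3K4me1, at chr6:135203535-135216884. For FLI1 H3K4me1 it gave -0.447, at chr11:128684093-128688284 over the upstream start, and a 1 kb window gave -0.447 as well. With a library left out, FLI1 H3K27ac ran from -0.231 to 0.104 and MYB H3K4me1 from -0.213 to 0.0519. In H3K4me3, CEBPA ran from -0.0402 to 0.121, FLI1 from -0.0693 to 0.0522, GFI1 from -0.141 to 0.0094, IRF8 from -0.0283 to 0.207, KLF4 from -0.12 to 0.0396 and MYB from -0.155 to 0.00942. Distal H3K27ac ran from -0.0623 to 0.178 for CEBPB, -0.189 to 0.0139 for CEBPE, -0.74 to 0.101 for EGR1 and -0.211 to 0.0608 for GFI1.

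Over all intervals, edgeR called 177 (H3K27ac), 1882 (H3K27me3), 2099 (H3K4me1) and 134 (H3K4me3), and DESeq2 called 85, 1278, 26 and 34. GC offsets gave 953 for H3K4me1. Leaving out a library gave 20 to 89, 1168 to 1517, 322 to 1756 and 28 to 170. Calls higher in PR-957 were 13.9% of H3K27me3 calls, but 68.5% with library size only and 45.1% after cyclic loess. For H3K4me1 they were 63.9%, and 80.4% with library size only. Standard errors were large at low intervals, such as CEBPE H3K4me3 and the CEBPA start in H3K4me1.

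With the replicate number as a block, 0 promoter and 0 distal intervals of the 10 genes were called in each mark, and 195, 1324, 1904 and 161 over all intervals. The block with GC offsets gave 629 for H3K4me1 and 205 for H3K4me3, with 55.6% of H3K4me3 calls higher against 79.9%, and a log2 fold change of 0.00758 for CEBPE H3K4me1. Same-numbered libraries had correlated deviations of -0.009, -0.007, 0.007 and 0.167, and whether the numbers pair libraries was not tested.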
